A study of Homo sapiens with 7 samples.

Results

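The 4 genes of the human fibroblast growth factor (FGF) receptors, FGFR1, FGFR2, FGFR3 and FGFR4, were examined among 20163 protein-coding genes for the chromatin loops that start at their promoters in Ishikawa, T-47D and LNCaP cells. A promoter was taken as a window of 500 bp centred on any annotated start site of the gene (GENCODE lifted to GRCh37, the same build as hg19), and a loop was kept where 1 of its 2 different anchors overlapped such a window. This rule found 74 of 163530 loops in the Ishikawa list, 23 of 42027 in the T-47D list and 1 of 149226 in the LNCaP list. The assay was H3K27ac HiChIP, in which contacts between DNA regions are sequenced after pull-down of acetylated lysine 27 of histone H3, a mark of active promoters and enhancers. Ishikawa is an endometrial adenocarcinoma line (4 samples, 2 given the vehicle DMSO and 2 given 10 nM of the estrogen E2, 17beta-estradiol, all for 1 h), T-47D a breast carcinoma line (1 sample) and LNCaP a prostate carcinoma line (2 samples), and the labels give no treatment for T-47D and LNCaP. The samples of a line were merged into 1 loop list before deposit, so no value has a replicate error and DMSO was not compared with E2. Chromatin was cut with DpnII in Ishikawa and with MboI in T-47D and LNCaP, both of which cut at GATC, and sonication, read length and depth changed with the enzyme. Wherever Ishikawa is set against another line, the effects of these steps and of the line cannot be told apart.

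FGF receptors are receptor tyrosine kinases of the cell surface. A secreted FGF, held by heparan sulfate or a klotho co-receptor, pairs receptors so that they phosphorylate each other and the docking protein FRS2, from which the RAS-MAPK and PI3K pathways are switched on. In the uterus, breast and prostate, FGFs made in the stroma act on receptors of the epithelium, FGFR2 above all, and each of the receptor genes is amplified, mutated or fused in some carcinomas.

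FGFR2 lies on chr10:123237846-123357972 (minus strand), FGFR3 on chr4:1795020-1810599 (plus strand) and FGFR4 on chr5:176513906-176525145 (plus strand), and the position of FGFR1 is given with its loops. The canonical transcript of each has 18 exons. The annotation lists 47 start sites for FGFR1, 36 for FGFR2, 8 for FGFR3 and 13 for FGFR4, against a median of 5 over all protein-coding genes. Many of these sites lie inside the gene, which bears on the counts below. A distal anchor is an anchor that overlaps no promoter window of any protein-coding gene, and it is called linked to a receptor gene when a loop joins it to an anchor over that gene's promoter. The deposited value of a loop is a count of read pairs, with a minimum of 3, and levels are given as RPM, the gene's promoter loop read pairs per 1000000 read pairs of all loops in the list (1805322 read pairs for LNCaP, 1040329 for Ishikawa and 351260 for T-47D). Intervals are exact 95% Poisson intervals of the listed read pairs and cover counting error only.

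The 250 bases before the most upstream annotated start of FGFR2, FGFR3 and FGFR4 are shown as examples of the sequence in the anchors over the canonical start sites, and the window of FGFR1 is not printed (GRCh37, written 5' to 3' on the strand of the gene). The capitals mark the GC box, GGGCGG on either strand, the element bound by SP1.
FGFR2, chr10:123357973-123358222, minus strand: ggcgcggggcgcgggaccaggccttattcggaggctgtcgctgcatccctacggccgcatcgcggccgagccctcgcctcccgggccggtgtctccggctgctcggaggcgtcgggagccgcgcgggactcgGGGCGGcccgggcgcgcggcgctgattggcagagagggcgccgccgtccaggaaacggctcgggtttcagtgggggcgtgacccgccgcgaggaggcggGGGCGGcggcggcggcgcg
FGFR3, chr4:1794770-1795019, plus strand: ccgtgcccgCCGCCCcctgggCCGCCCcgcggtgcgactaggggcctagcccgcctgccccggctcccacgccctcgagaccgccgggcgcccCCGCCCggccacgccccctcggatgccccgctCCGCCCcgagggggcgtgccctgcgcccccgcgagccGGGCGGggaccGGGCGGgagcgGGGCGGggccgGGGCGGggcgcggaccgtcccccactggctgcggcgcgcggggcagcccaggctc
FGFR4, chr5:176513656-176513905, plus strand: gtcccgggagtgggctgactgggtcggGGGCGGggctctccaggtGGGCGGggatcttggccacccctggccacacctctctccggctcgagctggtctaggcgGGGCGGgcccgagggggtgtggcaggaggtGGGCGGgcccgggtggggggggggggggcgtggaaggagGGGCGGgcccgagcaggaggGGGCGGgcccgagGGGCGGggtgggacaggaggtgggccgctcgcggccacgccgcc

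The upstream windows of FGFR3 and FGFR4 were rich in this element and that of FGFR1 held none. The FGFR1 window lies before its most upstream start, 38326352, while its canonical start site is 38326153. The bases between these positions were not searched, so the FGFR1 values do not describe the sequence just before its canonical start site. FGFR3 had 8 GC boxes, FGFR4 7, FGFR2 2 and FGFR1 0, and 48.8% of 20140 protein-coding promoter windows of this length held at least 1. The G and C content was 86.8% for FGFR3, 80.0% for FGFR4, 79.2% for FGFR2 and 54.4% for FGFR1, with a median of 59.6% over all promoters. No match to AP-1 (TGANTCA), FOXA (TGTTTAC), the palindromic estrogen response element or the CTCF core lay in any of the 4 windows on either strand.

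The markers of the 3 lines went with their labels. Of 13 markers, 12 had the highest promoter loop level in their own line, and HOXA11, a marker of endometrial epithelium, was at 0 in all lists. KLK2 and KLK3 had the same 2936 LNCaP read pairs and may rest on the same loops. EMX2, an Ishikawa marker, lies in the dense Ishikawa stretch of chromosome 10 described below. The lists differed in resolution: the median anchor measured 5.10 kb for Ishikawa, 3.23 kb for LNCaP and 2.61 kb for T-47D. The Ishikawa list was made of 4 sorted parts that are not assigned to samples, and read pairs were summed over them. None of the 70 rows of the T-47D list that joined different chromosomes lay over a receptor start site.

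All 4 receptor genes had promoter loops in Ishikawa, 3 had them in T-47D, and FGFR1 alone had any in LNCaP by this rule, while an LNCaP anchor inside FGFR3 lay just outside the window. Of all protein-coding genes, 57.3% had a promoter loop in Ishikawa, 58.1% had one in LNCaP and 49.2% in T-47D. A linked distal anchor was found for 4 of 4 receptors in Ishikawa, where 52.5% of all genes had one, for 3 of 4 in T-47D (34.7% of all genes) and for 0 of 4 in LNCaP (52.4% of all genes). With 4 genes these counts are descriptions only. A single loop at the minimum of 3 read pairs is worth 1.66 RPM in LNCaP, the most deeply counted list, 2.88 RPM in Ishikawa and 8.54 RPM in T-47D, and loops under that minimum are not listed, so 0 means that no loop is listed.

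**Figure D1:**
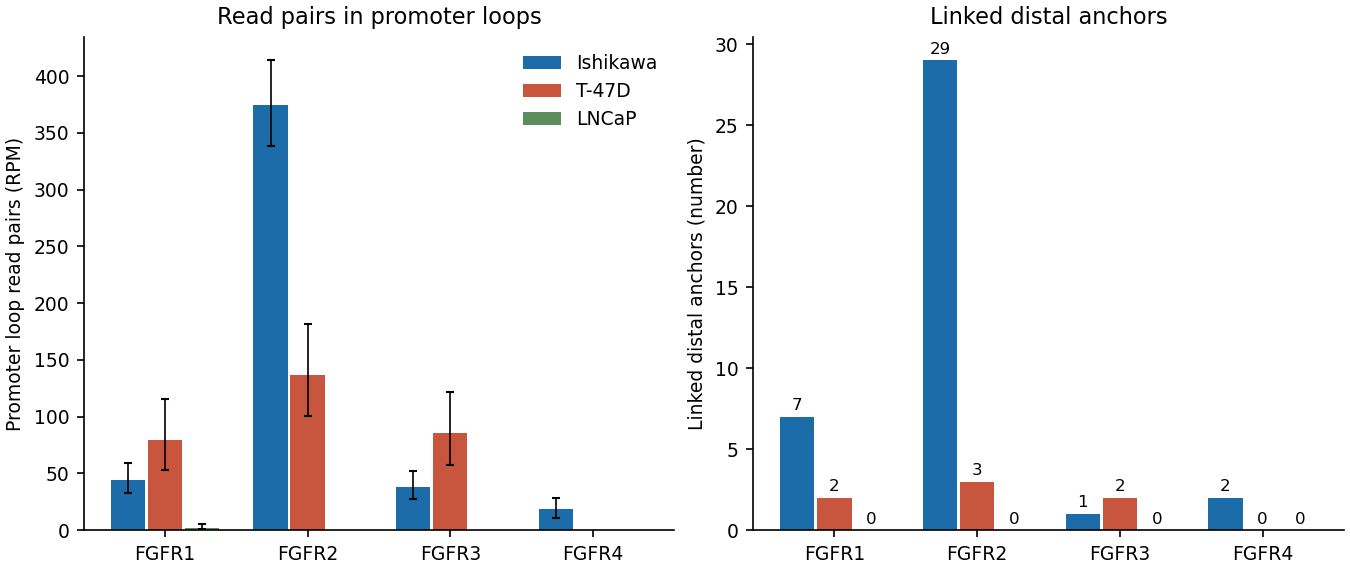
Promoter loop read pairs in RPM (left panel, bars with exact 95% Poisson intervals where the value is above 0) and number of linked distal anchors (right panel, values printed above the bars) of each receptor gene in the 3 lists. FGFR2 in Ishikawa stands above all other bars with 374.9 RPM and 29 linked distal anchors, and the LNCaP bars are at or near 0.

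FGFR2, the receptor whose epithelial splice form binds stromal FGF7 and FGF10, had the highest level of the 4 in Ishikawa and in T-47D with all start sites counted. With 1 start site per gene FGFR3 stood above it in both lists, with 38.5 against 31.7 RPM in Ishikawa and 85.4 against 68.3 in T-47D. In Ishikawa its 57 loops held 390 read pairs, or 374.9 RPM (338.6 to 414.0), and 99.5% of protein-coding genes had fewer read pairs. In T-47D, 10 loops held 48 read pairs, or 136.7 RPM (100.8 to 181.2), above 86.7% of genes. In LNCaP it had no loop, and its nearest LNCaP anchor lay 232.5 kb from the canonical start site, and no LNCaP anchor lay over the 120.1 kb gene. The level in Ishikawa was 2.74 times that in T-47D (exact 95% interval 2.03 to 3.78).

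The order of Ishikawa and T-47D rested on start sites inside the gene. The anchor over the canonical start site of FGFR2 took part in 7 Ishikawa loops with 33 read pairs and in 5 T-47D loops with 24 read pairs. That is 31.7 RPM against 68.3 RPM, a ratio of 0.464 (0.266 to 0.821), so the order was turned. The other 50 Ishikawa loops, with 357 read pairs, touched only anchors over internal start sites. In the annotation, the transcripts that start in those 5 internal Ishikawa anchors are of the classes retained intron or protein-coding without a defined coding sequence, and none is a protein-coding transcript. In T-47D, 2 internal anchors accounted for the remaining 5 loops and 24 read pairs. With 1 start site per gene, FGFR2 had 7 linked distal anchors in Ishikawa, and 94.0% of genes had fewer, while in T-47D it had 5, above 93.4% of genes. In that setting an anchor over only other start sites counts as distal. The Ishikawa number thus includes the FGFR2 anchor over exons 7 and 8. The T-47D number includes the FGFR2 anchor in intron 9 and an anchor over a TACC2 start site.

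**Figure D2:**
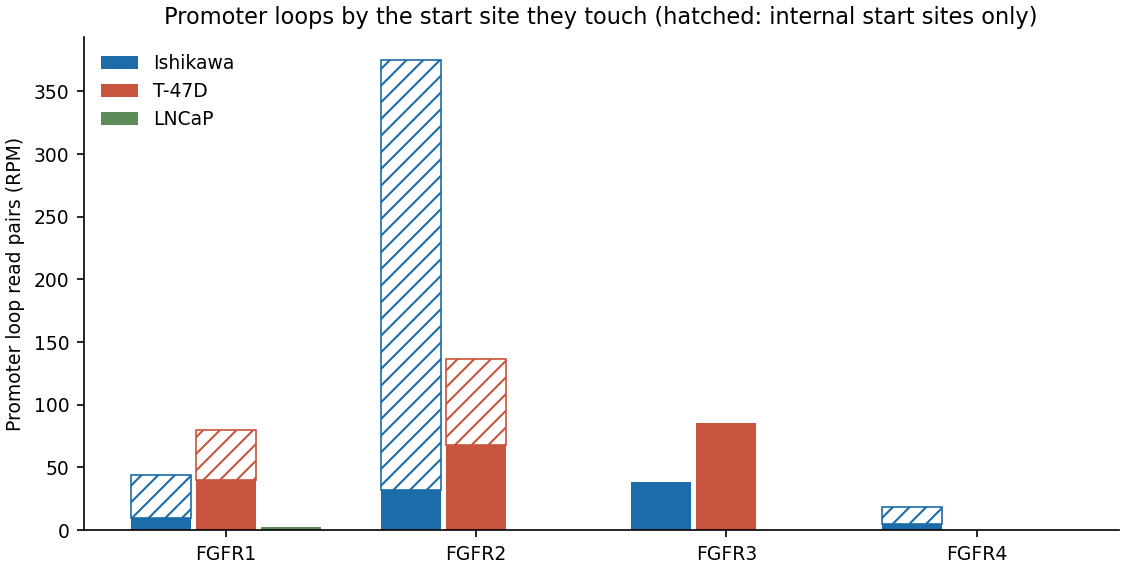
Promoter loop read pairs in RPM for each receptor gene, split into loops that touch the anchor over the canonical start site (filled) and loops that touch only anchors over internal start sites (hatched). FGFR2 in Ishikawa is mostly hatched (357 of 390 read pairs), and the filled part of its T-47D bar, 68.3 RPM, is taller than that of Ishikawa, 31.7.

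The strongest FGFR2 contact in Ishikawa lay within the gene. It joined an anchor in intron 9 (chr10:123267419-123274176) to an anchor over exons 7 and 8 (chr10:123275461-123288853) with 37 read pairs, and it occurred in all 4 parts of the list. The anchor over exons 7 and 8, 13.4 kb wide, was the busiest of the gene, with 26 loops and 236 read pairs. The anchor over exons 14 to 17 (chr10:123243241-123248651) followed with 14 loops and 96 read pairs. In T-47D the strongest loop, with 9 read pairs, joined the canonical promoter to an anchor in the same intron 9 (chr10:123267416-123271590), 88.4 kb away.

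The linked distal anchors of FGFR2 in Ishikawa were mostly downstream of the gene. Of 29, 22 lay downstream of the canonical start site, 19 of them beyond the end of the gene, and 7 lay upstream. In the annotation 23 were intergenic, 3 overlapped FGFR2 itself and 3 fell in other genes. The linked anchor with the most read pairs, 38 in 4 loops, lay 490.6 kb downstream (chr10:122859321-122875345) and was joined to the canonical promoter with 6 of them. An anchor over the last exon, exon 18 (chr10:123232994-123237974), had 37 read pairs in 3 loops, all from internal start sites, and 1 of these loops, with 20 read pairs, was in all 4 parts. A neighbour just beyond the gene end (chr10:123226818-123231064) had 27 read pairs. The farthest, in an intron of LHPP 2838 kb upstream, rested on 3 read pairs in 1 part.

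None of the 29 Ishikawa linked anchors of FGFR2 overlapped any T-47D or LNCaP anchor, and 79.0% of the 26107 linked distal anchors of all genes in Ishikawa overlapped none. The T-47D list linked FGFR2 to 3 anchors near its start instead. They were an anchor in intron 2 with 14 read pairs (chr10:123338048-123340996, 18.4 kb downstream), another in intron 2 with 6 (chr10:123331921-123333818, 25.1 kb downstream) and an intergenic anchor with 9 (chr10:123366981-123368695, 9.88 kb upstream). No Ishikawa or LNCaP anchor overlapped these 3, and 35.7% of the 7742 linked distal anchors of all genes in T-47D overlapped none. The canonical promoter was joined to all 3 in T-47D.

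**Figure D3:**
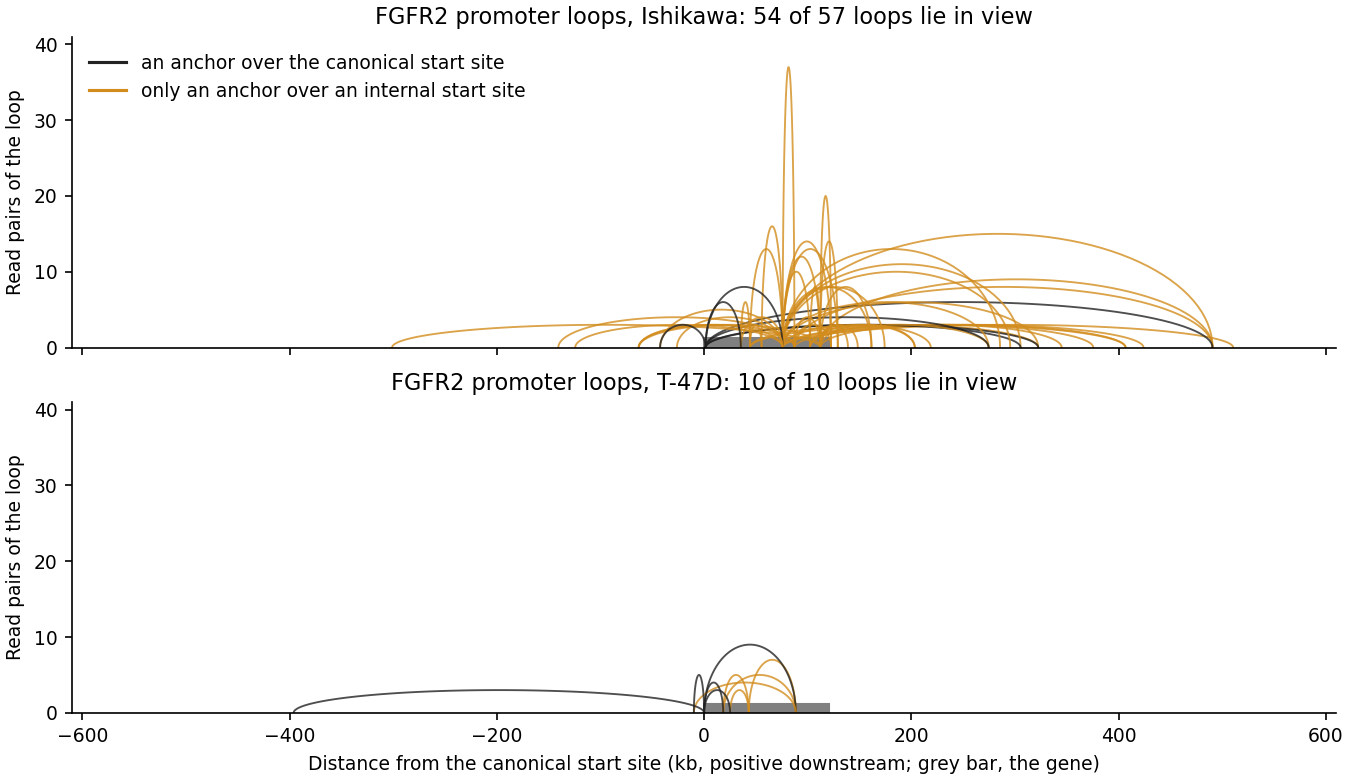
Promoter loops of FGFR2 in Ishikawa (top) and T-47D (bottom), drawn as arcs between anchor centres. The x axis gives the distance from the canonical start site in kb (positive downstream), the height of an arc gives its read pairs, and 54 of 57 Ishikawa loops and 10 of 10 T-47D loops are in view. Ishikawa arcs reach far past the end of the gene and start mostly at internal sites, and T-47D arcs stay within 100 kb of the start site except 1 to TACC2.

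FGFR2 lies in a stretch of chromosome 10, from 74 Mb on, where the Ishikawa list is dense. The 425 protein-coding genes there had a median of 6 linked distal anchors in Ishikawa, against 1 for the other genes. Within this stretch, 98.8% of genes had fewer linked anchors than FGFR2, and only GRID1 (47), CFAP46 (34), NT5C2 (32) and TCF7L2 (31), which were looked up after their values were seen, had more. In read pairs FGFR2 stood above 96.2% of the stretch. In T-47D the median was 0 linked anchors inside and outside the stretch, but 3 read pairs inside and 0 outside, and FGFR2 stood above 88.0% of its genes by linked anchors. The part of the dense stretch in the Ishikawa level of FGFR2 was not tested.

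The canonical FGFR2 anchors of both lists end at the same GATC site, 2 bp apart (positions 123360759 in Ishikawa and 123360757 in T-47D). The 30 bases around each edge are given on the plus strand of GRCh37, with the GATC site in capitals.
Ishikawa start, chr10:123352338-123352367: cgatgagtgctggGATCtgccgttttattc
T-47D start, chr10:123355103-123355132: gaagataatttcgGATCtatttctacatac
Ishikawa and T-47D end, chr10:123360745-123360774: accttcccgggtgGATCtgagctccctgca

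The gene-proximal edges differed, so the Ishikawa anchor measured 8.41 kb, held 23 start sites of the gene and reached exon 2. The T-47D anchor measured 5.64 kb and held 15 start sites. All 36 edges of receptor promoter anchors lay within 10 bp of a GATC site. Among the 29 Ishikawa linked anchors of FGFR2, 1 (3.45%) held a match to the CTCF core, in the anchor over exons 3 and 4, against 2.69% of all distal Ishikawa anchors. It is shown with 8 bases on each side and the match in capitals.
CTCF core match, chr10:123324542-123324570, plus strand: aaactcggCCACAAAGGGGGCctgttctg

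AP-1 matches stood at 0.384 per kb in these anchors and 0.345 per kb in all distal anchors. FOXA matches stood at 0.0972 and 0.163 per kb, and no estrogen response element was found, which 0.548% of all distal anchors held. The 3 T-47D linked anchors of FGFR2 held 3 FOXA matches in 6.56 kb, 0.457 per kb against 0.180 per kb in all T-47D distal anchors. These matches are letters in wide windows and counts this small are descriptions.

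FGFR1, a receptor often amplified in breast carcinoma, lies on chr8:38257733-38326352 (minus strand). It was higher in T-47D than in Ishikawa on the RPM scale with all start sites counted and was the only receptor with a loop in LNCaP by the window rule. In Ishikawa it had 10 loops with 46 read pairs, or 44.2 RPM (32.4 to 59.0), above 84.7% of genes. In T-47D it had 7 loops with 28 read pairs, or 79.7 RPM (53.0 to 115.2), above 78.5% of genes. In LNCaP it had 1 loop with 4 read pairs, or 2.22 RPM (0.604 to 5.67). The Ishikawa level was 0.555 times that in T-47D (0.339 to 0.922), and the T-47D level was 36.0 times that in LNCaP (12.6 to 141.2). Both values rest on all start sites, and 14 of the 28 T-47D read pairs touched only an anchor that FGFR1 shares with another gene. Without those the T-47D level was 39.9 RPM, below the 44.2 of Ishikawa. That comparison is uneven, since 36 of the 46 Ishikawa read pairs touched only an internal anchor and stay in the 44.2. With the canonical anchor alone the levels were 9.61 RPM in Ishikawa and 39.9 in T-47D.

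At the canonical start site of FGFR1, T-47D stood above Ishikawa. That anchor carried 10 read pairs for Ishikawa, 9.61 RPM, and 14 for T-47D, 39.9 RPM, a ratio of 0.241 (0.0958 to 0.584). LNCaP had 4 read pairs there, and the T-47D level was 18.0 times its level (5.65 to 75.1). The T-47D and LNCaP lists used the identical anchor there, chr8:38324101-38327381. The other T-47D anchor, chr8:38258455-38259777, holds a start site near the 3' end of FGFR1 and also a start site of LETM2, a gene related to LETM1, so its 4 loops and 17 read pairs cannot be split between these genes. In Ishikawa, 36 of 46 read pairs touched only an anchor over exons 3 to 7 (chr8:38280318-38289747).

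FGFR1 was linked to 7 distal anchors by the Ishikawa list, 2 by the T-47D list and 0 by the LNCaP list. These numbers were 3, 3 and 1 with 1 start site per gene. In that setting an anchor over only other start sites counts as distal, and the 1 in LNCaP is an anchor over a TACC1 start site. In Ishikawa the strongest were an intergenic anchor 231.2 kb upstream (chr8:38554639-38560107, 12 read pairs in 1 loop, found in 3 parts) and an anchor in intron 2 (chr8:38303656-38307644, 12 read pairs in 2 loops). The anchor 231.2 kb upstream was joined only to the internal anchor over exons 3 to 7, where no protein-coding transcript starts. In T-47D the 2 linked anchors lay 41.8 kb upstream (8 read pairs) and 85.1 kb upstream (3 read pairs). Of the 8 read pairs, 5 came from the anchor shared with LETM2 and cannot be assigned to FGFR1, and 3 came from the canonical anchor. No Ishikawa linked anchor of FGFR1 overlapped a T-47D one, although 2 of the 7 overlapped some anchor of another list and 5 did not, where 79.0% of all Ishikawa linked anchors did not.

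FGFR3, which restrains growth of bone and is mutated in many bladder carcinomas, drew its loops from its canonical promoter alone. In Ishikawa it had 4 loops with 40 read pairs, or 38.5 RPM (27.5 to 52.4), above 82.3% of genes. In T-47D it had 6 loops with 30 read pairs, or 85.4 RPM (57.6 to 121.9), above 79.7% of genes. The Ishikawa level was 0.450 times the T-47D level (0.274 to 0.749). The Ishikawa anchor there was 17.4 kb wide and the T-47D anchor 5.38 kb.

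In LNCaP FGFR3 had no loop by the rule, but this value hung on the window. An LNCaP anchor in intron 2 of the gene, chr4:1796028-1798308, began 405 bp past the nearest annotated start site and 1008 bp past the canonical one. It overlapped the promoter anchors of both other lists and had 3 loops of 4 read pairs each, 6.65 RPM in all. They led to anchors over start sites of TACC3, SLBP and TMEM129, of LETM1, and of NSD2. With promoter windows of 2 kb these loops counted for FGFR3, and LNCaP then had 12 read pairs for it, still the lowest of the 3 lists on the RPM scale.

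The loops that recurred between lists were contacts of FGFR3 with the promoters of LETM1 and NSD2. LETM1, which encodes a mitochondrial inner membrane protein, was joined to FGFR3 by 2 Ishikawa loops with 15 read pairs and by 1 T-47D loop with 4. The stronger Ishikawa loop, with 12 read pairs, overlapped the T-47D loop and the LNCaP loop of 4 read pairs at both anchors. TACC3, a protein of the mitotic spindle, was joined by 10 Ishikawa read pairs and 3 T-47D read pairs. Their TACC3 anchors did not overlap, so this loop did not count as recurring. Among gene pairs at a like distance, 13.5% in Ishikawa and 25.0% in T-47D were joined or shared an anchor for LETM1, and 12.1% and 22.5% for TACC3. FGFR3 was linked to 1 distal anchor in Ishikawa, inside LETM1 (chr4:1825118-1831477, 15 read pairs), which no longer counted as distal with promoter windows of 2 kb, and to 2 in T-47D, 25.3 kb upstream (6 read pairs) and 20.1 kb downstream (5 read pairs).

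FGFR4, the receptor that with KLB answers FGF19 in liver, had loops only in the Ishikawa list. It had 3 loops with 19 read pairs, or 18.3 RPM (11.0 to 28.5), above 68.6% of genes. In T-47D and LNCaP no loop was listed for it, where a single loop at the minimum would give 8.54 and 1.66 RPM. No anchor of either list lay over the gene. The nearest were over the promoter of NSD1, 46.5 kb away in T-47D and 45.0 kb away in LNCaP. LNCaP had 140 loops centred within 500 kb of the start site, above 75.2% of genes, so the surroundings were not empty there.

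Of the 19 read pairs of FGFR4, 11 joined an anchor over exons 2 to 11 (chr5:176515545-176521024) to an intergenic anchor 19.0 kb downstream of the start site (chr5:176530686-176535110), found in 3 parts. Another 5 joined that anchor to the canonical promoter, 5.80 kb away, and 3 led to an intron of NSD1. Of the 6 transcripts that start in the internal anchor, 2 are protein-coding.

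**Figure D4:**
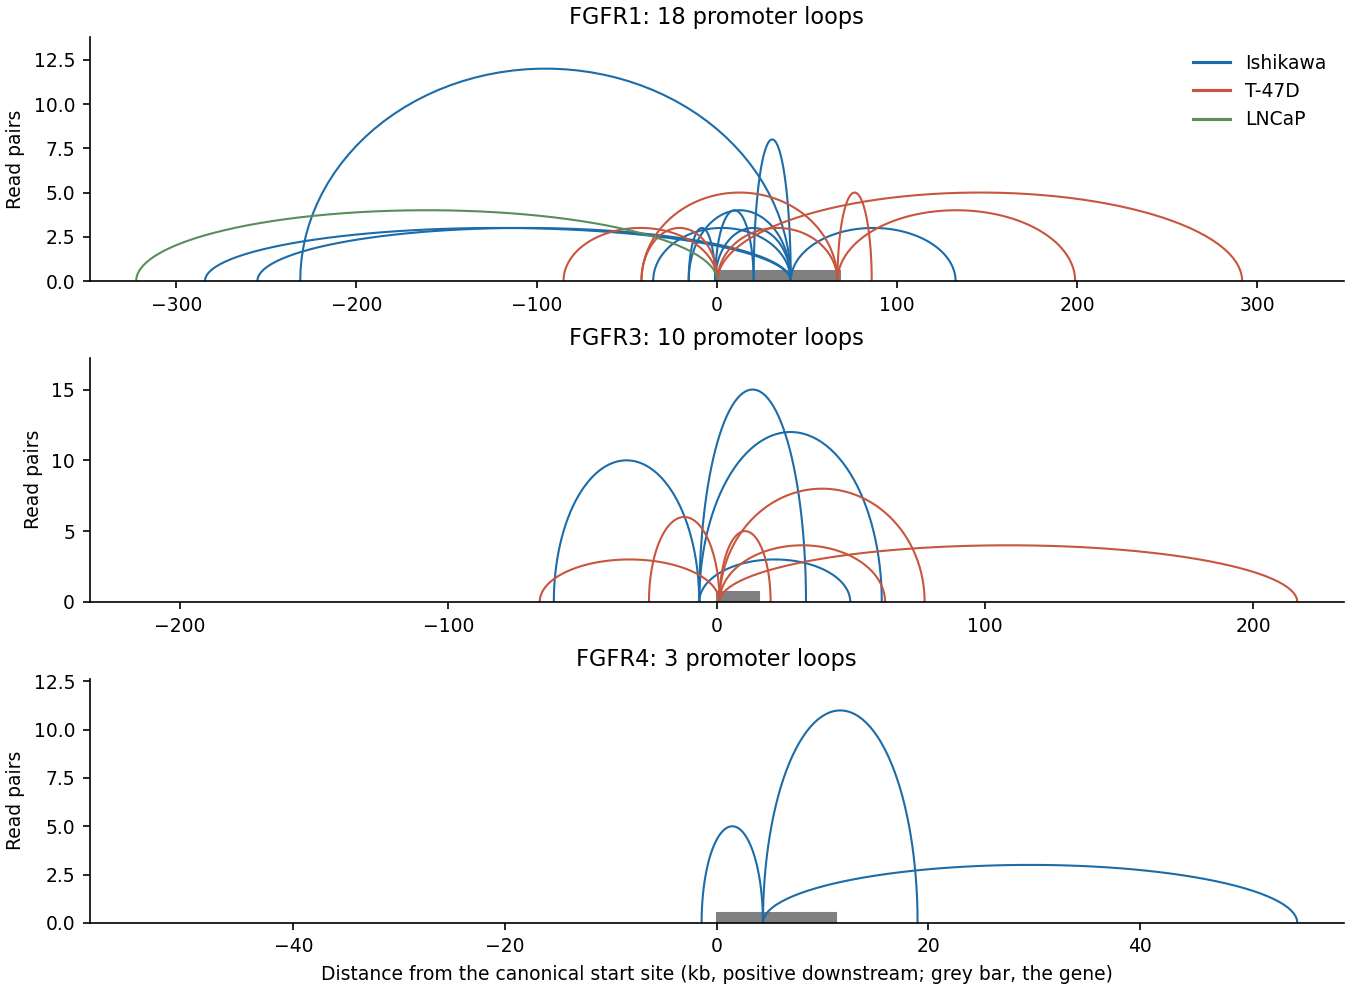
Promoter loops of FGFR1, FGFR3 and FGFR4 in the 3 lists, drawn as arcs between anchor centres, with distance from the canonical start site in kb on the x axis (positive downstream) and read pairs as arc height. FGFR1 loops spread to both sides in Ishikawa and T-47D, FGFR3 loops cluster within 100 kb except 1, and FGFR4 has 3 loops, all from Ishikawa.

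A receptor loop was counted as recurring in another list when both anchors overlapped by 1 bp or more. Of the 74 Ishikawa loops, 1 (1.35%) was found in T-47D, against 5.4% of the promoter loops of all genes, and 1 (1.35%) in LNCaP, against 10.9%. Of the 23 T-47D loops, 1 (4.35%) was found in Ishikawa, against 10.3% of promoter loops of all genes, and 2 (8.70%) in LNCaP, against 45.9%. The 1 LNCaP loop was found in neither, where 7.37% of LNCaP promoter loops were found in Ishikawa and 15.6% in T-47D. With so few receptor loops these shares are descriptions. All of these were FGFR3 loops, to LETM1 and, between T-47D and LNCaP, to NSD2.

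FGFR1, FGFR2 and FGFR3 each have a member of the TACC family as a neighbour, and FGFR1, FGFR3 and FGFR4 a histone methyltransferase of the NSD family. Apart from TACC3 and LETM1, these neighbours were chosen after their values were seen. FGFR1 was joined to TACC1 in LNCaP, over 322.7 kb, with 4 read pairs, its only loop there, while FGFR2 was joined to TACC2 in T-47D, over 396.2 kb, with 3. Among gene pairs at a like distance, 13.2% in LNCaP and 3.70% in T-47D were joined or shared an anchor. NSD2 was joined to FGFR3 with 8 read pairs in T-47D, where 21.4% of gene pairs at a like distance were joined or shared an anchor. A T-47D loop of 5 read pairs to NSD3 came from the anchor that also holds the LETM2 start site, and it cannot be assigned to FGFR1. FGFR4 had no loop to the promoter of NSD1 in any list.

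The 4 parts of the Ishikawa list showed how far the values vary within it. FGFR2 ranged from 277.4 to 451.4 RPM of the part with all start sites counted, above the T-47D level of 136.7 in each part. At the canonical start site alone the order was turned in each part, with 0 to 50.2 RPM against 68.3 in T-47D. These values rested on 9, 0, 12 and 12 read pairs in parts 1 to 4. A single loop at the minimum is worth 33.3 RPM in part 2, where the value was 0. No interval was computed for single parts, so this order is a description. FGFR1 ranged from 29.8 to 79.4 and FGFR3 from 18.6 to 62.7, below the T-47D levels of 79.7 and 85.4 in every part. The FGFR1 value of 79.4 rested on 19 read pairs and stood next to the T-47D level. Without the read pairs that touched only the anchor shared with LETM2, the T-47D level of FGFR1 was 39.9. Parts 2 and 3 (44.4 and 79.4) lay above that value and parts 1 and 4 (29.8 and 33.9) below it. These part values still count the internal Ishikawa anchor of FGFR1. At its canonical start site alone FGFR1 stood at 0, 0, 12.5 and 15.8 RPM in parts 1 to 4, below 39.9 in each. They rested on 0, 0, 3 and 7 read pairs. FGFR4 was at 0 in 1 part and reached 33.3 in part 2, on 1 loop at the minimum of 3 read pairs. In part 4 it had 13 read pairs, or 29.4 RPM. Of the FGFR2 loops, 24 of 57 (42.1%) occurred in 2 or more parts, of FGFR3 3 of 4, of FGFR1 2 of 10 and of FGFR4 1 of 3, against 33.8% of all Ishikawa loops.

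**Figure D5:**
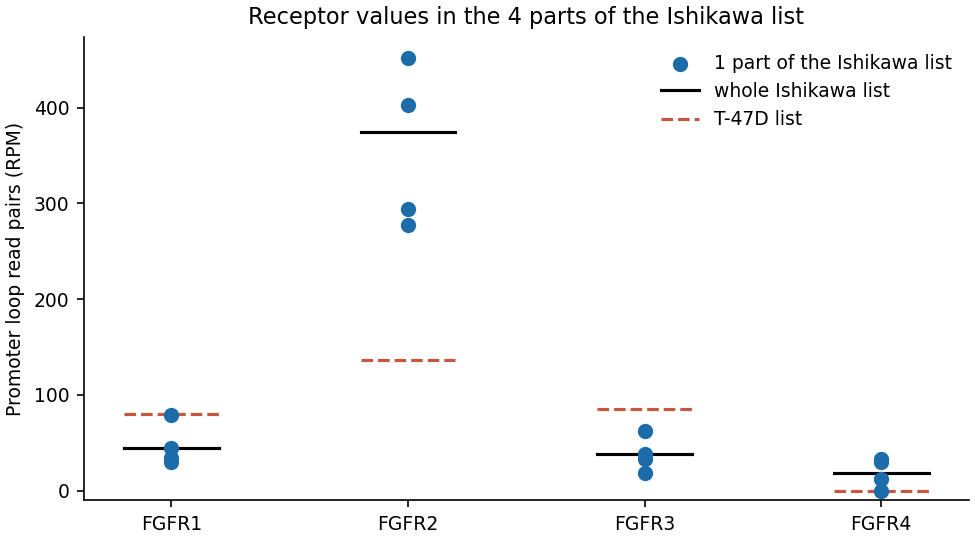
Promoter loop read pairs in RPM in each of the 4 parts of the Ishikawa list (points), with the whole Ishikawa list (black line) and the T-47D list (dashed line) for each receptor gene. All start sites are counted. The FGFR2 points lie between 277.4 and 451.4, all above the T-47D line. That order turns at the canonical start site alone (0 to 50.2 against 68.3, on at most 12 read pairs per part). The FGFR1 and FGFR3 points lie below their T-47D lines, with the highest FGFR1 point, 79.4, next to its line at 79.7. Without the read pairs that touch only the anchor shared with LETM2, the FGFR1 line would stand at 39.9. The FGFR1 points still count an internal anchor, and at the canonical start site alone they would reach at most 15.8.

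A few genes had a pattern over the 3 lists close to that of a receptor, measured as the distance between log2(RPM + 1) values. For FGFR1 they were MARVELD1 (distance 0.235), ATP10A (0.370) and GPC1 (0.410). For FGFR2 they were TNIK (0.552), NCKAP5L (0.708) and HOXB7 (0.746), and no gene came within 0.5. For FGFR3 they were LSP1 (0.0600), OSBPL3 (0.105) and MDK (0.191). For FGFR4, 619 genes came within 0.5, since many genes have a low Ishikawa level and none elsewhere, and none is named. These distances rest on 3 values per gene.

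The other genes of the FGF pathway were taken as a list of 61. A linked distal anchor was found for 43 of them (70.5%) in Ishikawa, 29 (47.5%) in LNCaP and 24 (39.3%) in T-47D, against 52.5%, 52.4% and 34.7% of all genes, and the median number was 2, 0 and 0, against 1, 1 and 0 over all genes. Of 22 FGF genes listed as ligands, 12 (54.5%) were linked in Ishikawa, near the 52.5% of all genes. None was linked in T-47D, where 34.7% of all genes were, and 1 in LNCaP (52.4% of all genes), FGF13 with 4 linked anchors. FGF12 had the most in Ishikawa, 21. FGF11, FGF12, FGF13 and FGF14 stay inside the cell, so this list is wider than the secreted ligands of the receptors.

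The signalling genes below the receptors were linked in all lists. Of 19 adaptors and effectors, 18 were linked in Ishikawa, 17 in LNCaP and 13 in T-47D. PIK3CA, the catalytic subunit of PI3K, had 17 linked anchors in Ishikawa and 7 in T-47D, and the adaptor GRB2 had 14 in Ishikawa. Of 11 feedback regulators, 7 were linked in Ishikawa and 6 in each of the other lists, and DUSP4, a MAPK phosphatase, had 9 in T-47D and 14 in LNCaP but 0 in Ishikawa. Of 6 response transcription factors, 5 were linked in Ishikawa and 4 in each of the other lists, with MYC at 11 in T-47D and 72 in LNCaP and ETV1 at 21 in LNCaP. Among the co-receptors and the related receptor, KLB had 4 linked anchors in Ishikawa, FGFRL1 2 each in T-47D and LNCaP, and KL 0 in all lists.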

How the data were processed

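H3K27ac HiChIP was measured in 7 samples of 3 cell lines. The authors aligned reads to hg19 with HiC-Pro, called loops with hichipper, and removed loops of fewer than 3 reads or with a high false discovery rate (tool versions are not given in the sources used here). The deposited value is a count of read pairs per anchor pair, not scaled for depth, in 1 merged list per line. Counts in pooled lists weight each sample by its depth.

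Pairs of different anchors on 1 chromosome were kept, and the 4 Ishikawa parts were summed. Start sites came from GENCODE release 44, lifted to GRCh37, with windows of 500 bp. The receptors and the gene lists were chosen with earlier results of these data known. Named genes are the receptors, genes joined to them by 10 or more read pairs or in 2 or more lists, the 3 genes most alike per receptor, and the pathway genes with the most linked anchors, 1 of which is not reported here. No test was made, since no list has replicates. Ratios carry exact conditional 95% intervals. Counting was tested on simulated data, where planted links of 200 of 200 genes were recovered. That list held planted loops alone, from 1 start site per gene to anchors placed away from start sites. It therefore checks the counting only, and not the effect of internal start sites or shared anchors. Python 3.11.15, pandas 2.3.3, numpy 2.4.6, scipy 1.17.1 and pysam were used. Alternatives were minima of 5 and 10 read pairs, windows of 2 kb, other start sites, spans of 5 kb to 2 Mb and 20 kb to 1 Mb, equal numbers of loops, loops in 2 or more parts, leaving out each part, other distal anchors and a 50% overlap.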

Additional observations from a re-analysis of the deposited data

Results flagged for a closer look

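Pairs within a single anchor were left out of the loops and stand as values outside the comparisons. In Ishikawa the FGFR1 anchor chr8:38280318-38289747 held 49 such read pairs, the FGFR3 anchor chr4:1779789-1797213 held 42, and the FGFR2 anchors held 49 over exons 7 and 8, 6 in intron 9 and 9 at the canonical start site. The FGFR2 anchor over exons 14 to 17 and the FGFR4 anchor chr5:176515545-176521024 held 3 each in Ishikawa. Over all 47450 Ishikawa anchors with such pairs the median was 6. In T-47D the FGFR2 anchor in intron 9 held 49, that in intron 4 held 5 and that at the canonical start site 6, while FGFR1 had 5 and FGFR3 7 at their canonical start sites. The T-47D median was 11 over 15042 anchors. The LNCaP list holds no such pairs, so no control value exists for it.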

How the results depend on the processing

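Each list merges its samples, so no replicate could be left out, and each Ishikawa part was left out in turn instead. No paired analysis was possible because the columns carry no replicate number and each line is 1 merged list. Without 1 part, linked distal anchors of the 4 receptors in Ishikawa ranged from 28 to 39 (39 in full) and read pairs from 272, without part 4, to 460 (495 in full), and the log2 ratio of Ishikawa over T-47D ranged from -1.24 to -0.62 for FGFR1, from 1.37 to 1.56 for FGFR2 and from -1.45 to -0.91 for FGFR3.

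With 5 or more read pairs per loop, linked distal anchors in Ishikawa fell to 18, read pairs to 65 in T-47D and 0 in LNCaP, and the FGFR3 log2 ratio moved from -1.15 to -0.39. With 10 or more, 10 linked anchors and 258 read pairs were left in Ishikawa, 0 and 0 in T-47D and 0 read pairs in LNCaP, so the ratios could not be computed. With windows of 2 kb, LNCaP had 16 read pairs. With 1 start site per gene, Ishikawa had 14 linked anchors and 88 read pairs, T-47D 12 and 68, and LNCaP 1 linked anchor, and with start sites of protein-coding transcripts 15 linked anchors and 102 read pairs were left in Ishikawa and 68 read pairs in T-47D. Under both, the log2 ratio moved from -0.85 to -2.05 for FGFR1 and turned from 1.46 to -1.11 for FGFR2, because the internal start sites were no longer counted. Anchors over start sites left out in these settings could count as distal, so the linked anchors are not of the same kind as in the main setting. With equal numbers of loops, Ishikawa had 13 linked anchors and 323 read pairs, LNCaP 0 read pairs, and the FGFR3 log2 ratio was -0.37. Ishikawa loops in 2 or more parts gave 16 linked anchors. Shared loops fell from 1 (T-47D in Ishikawa), 2 (T-47D in LNCaP) and 1 (Ishikawa in LNCaP) to 0 under both the 50% overlap and the minimum of 5 read pairs. The other totals stayed within 1.5 times, and the other ratios within their counting intervals. Of 360 single-gene values, 261 stayed within 1.5 times. Loops at 3 or 4 read pairs are close to the minimum of the lists, so a gene at 0 may lie just under it.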
